A study of Mus musculus with 8 samples.

Results

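The 10 genes described here encode enzymes that make triglyceride in fat and the glycerol phosphate it is built on: Pck1, Gpd1, Gpat3, Gpam, Agpat2, Lpin1, Mogat1, Mogat2, Dgat1 and Dgat2. They were taken by name, through the RefSeq accession of each array probe, from 36799 gene names on the array. All 10 had a probe, and all 10 were among the 25100 names that passed the filter on dim probes. Each was well above background in all 8 samples.

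The samples were white adipose tissue of mice 5 weeks old, of a 129 × C57BL/6 background and fed regular chow. The 4 WT samples came from wild-type mice. The 4 Ad/NICD samples came from mice that overexpressed N1ICD, the intracellular domain of the Notch1 receptor. The labels call the 4 samples of a group biological replicates, and they give no promoter for the transgene, no fat depot and no sex. Both genotypes of a replicate number were hybridised to the same 2-colour array, WT in the green channel (Cy3) and Ad/NICD in the red channel (Cy5) by the authors' deposited value table. The labelling protocol also gives Cy3 to controls. The dye tag of each sample says the opposite, so the direction given here, Ad/NICD over WT, is the likely one. With the dye tags it would turn in every sign, and the levels of WT and Ad/NICD would change places. No array had its dyes swapped, so dye and genotype cannot be told apart for a single probe.

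Triglyceride is stored by fat cells on a backbone of glycerol 3-phosphate. Fat cells make much of this backbone from lactate and amino acids, a route called glyceroneogenesis, in which pyruvate carboxylase (Pcx) and the cytosolic phosphoenolpyruvate carboxykinase (Pck1) feed carbon up to dihydroxyacetone phosphate, and glycerol 3-phosphate dehydrogenase (Gpd1) reduces it. Acyltransferases then add fatty acids one at a time: a glycerol phosphate acyltransferase (Gpat3 at the endoplasmic reticulum, Gpam at the mitochondrial outer membrane), an acylglycerol phosphate acyltransferase (Agpat2, whose loss causes lipodystrophy), the phosphatase lipin 1 (Lpin1), which yields diacylglycerol, and at last Dgat1 or Dgat2. Mogat1 and Mogat2 reach diacylglycerol by another way, from monoacylglycerol.

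The promoters of 3 of these genes are shown because the members sharing a reaction differed most at the step of Gpat3 and Gpam, because Pck1 is the gene of this set best known for hormonal control, and because N1ICD acts on DNA through the factor RBPJ. Each run covers 250 bases up to the base before the start site, 5′ to 3′ on the gene's strand, from RefSeq on GRCm38.p6. Capitals mark the RBPJ core TGGGAA and the CRE core CGTCA, a part of the cyclic AMP response element, on either strand. Gpat3 lies at chr5:100845979-100846228 on the plus strand, Pck1 at chr2:173152823-173153072 on the plus strand, and the 2 Gpam start sites follow chr19:55127239-55127488 and chr19:55099478-55099727 on the minus strand.
Gpat3: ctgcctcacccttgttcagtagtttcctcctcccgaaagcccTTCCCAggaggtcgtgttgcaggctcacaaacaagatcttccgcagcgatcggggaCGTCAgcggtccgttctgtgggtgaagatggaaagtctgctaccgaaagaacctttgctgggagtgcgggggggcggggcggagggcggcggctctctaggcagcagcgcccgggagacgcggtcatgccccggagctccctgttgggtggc
Pck1: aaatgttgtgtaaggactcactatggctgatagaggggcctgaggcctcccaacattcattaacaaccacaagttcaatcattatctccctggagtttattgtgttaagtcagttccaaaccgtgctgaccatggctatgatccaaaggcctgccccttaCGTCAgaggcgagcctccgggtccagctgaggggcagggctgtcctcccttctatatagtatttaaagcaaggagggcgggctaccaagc
Gpam, upstream start: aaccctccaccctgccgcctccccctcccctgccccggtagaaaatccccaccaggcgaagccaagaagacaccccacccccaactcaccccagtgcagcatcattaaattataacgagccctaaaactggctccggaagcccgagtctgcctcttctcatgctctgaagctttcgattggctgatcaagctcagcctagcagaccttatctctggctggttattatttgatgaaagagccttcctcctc
Gpam, downstream start: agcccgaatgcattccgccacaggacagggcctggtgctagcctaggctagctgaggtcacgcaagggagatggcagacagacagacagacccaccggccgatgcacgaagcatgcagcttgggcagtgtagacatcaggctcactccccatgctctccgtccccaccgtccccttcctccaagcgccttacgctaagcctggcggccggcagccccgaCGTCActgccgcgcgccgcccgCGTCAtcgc

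The RBPJ core matched the Gpat3 promoter 208 bases before the start site, and the CRE core matched it at 152. In Pck1 the CRE core lay 90 bases before the start site, and an RBPJ core lay after the start, at bases 18 to 23. In Gpam the upstream start held neither, and the downstream start held the CRE core at 31 and 9 bases before it. Promoters were found for 6 of the 10 members, with 7 start sites, each searched over 250 bases before and 50 from the start. Of these 7, 2 held the RBPJ core and 3 the CRE core, against 25.6% and 20.8% of 32851 promoters in the table. The full element TGACGTCA, the E-box CACGTG, the SREBP site TCACNCCAC, the PPAR DR1 element and the TATA box TATAAA matched 0 of the 7, and they matched 1.79%, 7.15%, 1.24%, 0.0396% and 13.6% of all promoters. The CCAAT box CCAAT matched 2 of the 7 and 37.4% of all. The CRE core lies within the full element. Such matches are a description of letters and not of binding.

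The median green spot read 72 to 88.5 against a local background of 45 to 46, in scanner intensity, and the median red spot 34 to 43.5 against 19 to 20. In each channel 56.8% to 67.8% of probes stood well above background. Precision is limited by there being 4 arrays. Xist, the RNA of the inactive X chromosome, had log2 signals of 10.15 to 10.45 in the 6 samples of replicates 1 to 3, and of 6.12 and 5.87 in WT and Ad/NICD of replicate 4, so the replicate 4 pair differs from the others in this sex-linked gene. Of the adipocyte markers Adipoq, Plin1, Cidec, Lep, Cfd, Fabp4, Retn and Lpl, 8 of 8 were measured and all but Lep had a mean log2 signal of 13 or more in both genotypes. The log2 of their summed signals, in which the brightest probes weigh most, was 17.83 to 18.45 in WT and 16.92 to 17.86 in Ad/NICD. Of the 8, 6 had a mean ratio below 0. In bulk tissue, fewer fat cells and less RNA per fat cell cannot be told apart, and the part of this in the ratios below was not tested.

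Levels below are log2 signals of 1 channel after loess and scaling between arrays. They may be compared between samples for a gene, and not between genes, since each probe has its own brightness. Ratios are log2 of Ad/NICD over WT on an array, with the SE of limma's fit.

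Most of the triglyceride enzymes had lower mean signals in Ad/NICD fat, by unequal amounts. The lowest ratio was that of Gpat3, 4.17-fold lower, and it was followed by Mogat1 (2.84-fold), Pck1 (2.25-fold) and Dgat1 (2.11-fold). Gpam and the brighter Agpat2 probe had ratios nearer to 0, while another Agpat2 probe had -0.96. Gpd1 went both ways between arrays. In the limma fit of the 4 ratios, 0 of 10 members passed an adjusted p of 0.05, where 0.0478% of all gene names did (0.0199% lower and 0.0279% higher). At an unadjusted p under 0.05, 6 of 10 were lower and 0 higher, against 8.99% and 6.25% of all names. In a fit of the separate channels that took the array as a random block (the random-block fit), 3 of 10 passed and all 3 were lower, namely Gpat3, Mogat1 and Dgat1, where 1.14% of all names were called lower and 2% in either direction. In separate channels without the block, 1 passed, Gpat3, where 0.629% of all names were called lower and 1.03% in either direction. The same-numbered samples share an array, so the paired ratio fit is the main one.

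**Figure D1:**
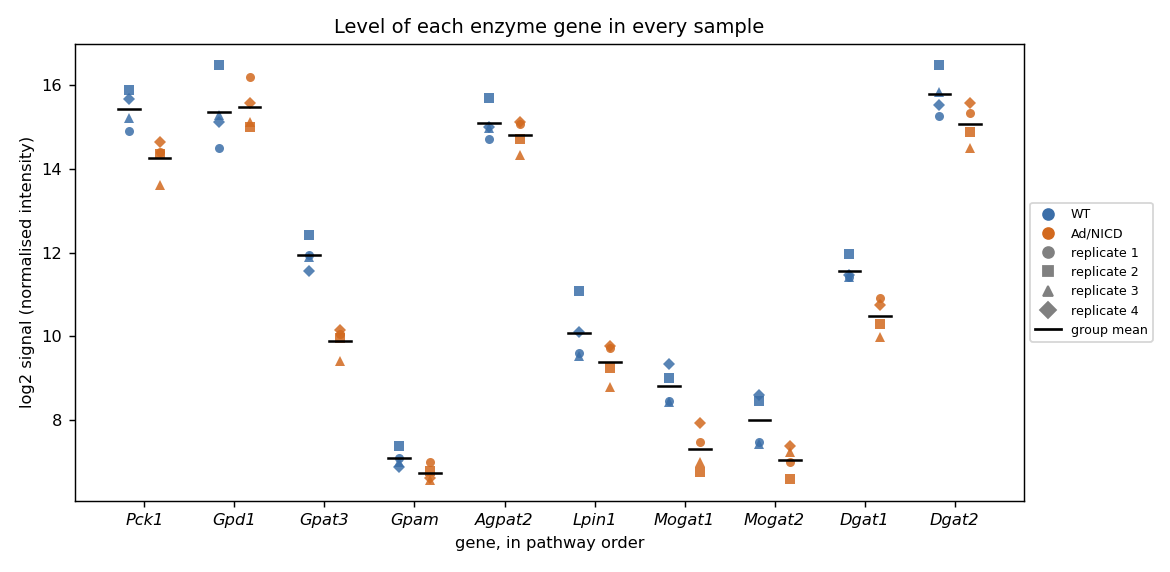
Log2 signal (y axis) of the 10 enzyme genes (x axis, in pathway order) in the 4 WT and 4 Ad/NICD samples, 1 point a sample with a shape for each replicate, and the group mean as a black bar. Heights are comparable within a gene only. In Gpat3, Mogat1, Mogat2, Dgat1 and Pck1 the points of the genotypes do not overlap, and WT replicate 2 is the highest WT sample for 8 of 10 genes.

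At the entry of glycerol phosphate into lipid, Gpat3 had log2 signals of 11.94, 12.41, 11.89 and 11.57 in WT replicates 1 to 4 and of 10.06, 9.96, 9.41 and 10.14 in Ad/NICD. The highest Ad/NICD sample thus lay 1 log2 unit or more below the lowest WT sample. The ratios on the arrays of replicates 1 to 4 were -1.88, -2.45, -2.48 and -1.43, with a mean of -2.06 ± 0.196 (SE, n = 4 arrays) and a 95% interval of -2.56 to -1.56. Limma's adjusted p was 0.087, and it was 0.432 with limma's trend and robust settings on the same ratios. It was 0.00709 in the random-block fit and 0.013 in separate channels without the block. Gpat3 also passed without replicate 4, the pair that differed in Xist, at -2.27 (adjusted p = 0.048), and leaving out the other replicates gave adjusted p-values of 0.188, 0.297 and 0.568. By size, its mean ratio had rank 25 from the lowest among the 25100.

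Gpam, which catalyses the same step, had log2 signals of 7.09, 7.38, 7.0 and 6.88 in WT and 6.99, 6.78, 6.56 and 6.61 in Ad/NICD. The groups overlap, although each Ad/NICD sample was below the WT sample on its own array. The ratios were -0.10, -0.60, -0.44 and -0.27. The mean ratio was -0.35 ± 0.0985, with a 95% interval of -0.60 to -0.10 and an adjusted p of 0.213. Its probe was dim, and an offset of 50 added to every signal draws ratios of dim probes toward 0. The ratio was -0.54 with an offset of 10, -0.76 with the scanner's processed signals and -0.56 with median centring. Gpat4, another enzyme of this step at the endoplasmic reticulum, had -0.42 ± 0.257 (adjusted p = 0.506), with 12.02 to 12.92 in WT and 11.74 to 12.40 in Ad/NICD. Gpat2 had 0.04 ± 0.0756 (adjusted p = 0.833), with 6.36 to 6.83 in WT and 6.46 to 6.67 in Ad/NICD. The Gpat2 probe was dim too, so its ratio near 0 says little about a change.

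Gpat3 minus Gpam, the difference of their log2 ratios, was -1.78, -1.85, -2.03 and -1.17 on the 4 arrays, a mean of -1.71 ± 0.376 (SD, n = 4). Gpat3 was thus 3.26-fold further down than Gpam, on 4 of 4 arrays. The exact sign-flip permutation test, two-sided, gave p = 0.125, adjusted p = 0.125 over the 3 enzyme pairs compared, and 0.125 is the smallest p that 4 arrays allow. Treating the samples as unpaired, the exact permutation test of the 8 samples gave an adjusted p of 0.0429. With the settings that changed Gpam most, the processed signals and the authors' value table, the difference was -1.45, with an adjusted exact permutation p of 0.375.

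Downstream of this step, Agpat2 adds the next acyl chain to make phosphatidate. Its brighter probe had 14.71, 15.69, 14.97 and 15.00 in WT and 15.08, 14.72, 14.33 and 15.13 in Ad/NICD, with ratios of 0.36, -0.98, -0.65 and 0.13. The groups overlap and the arrays point both ways, with a mean of -0.28 ± 0.245 (adjusted p = 0.638) and -0.05 without replicate 2. The other Agpat2 probe had a mean ratio of -0.96, with -0.11, -1.92, -1.27 and -0.53 on the arrays, so the probes of this gene disagree in size and order the arrays the same way. Of the other acyltransferases of this step, Agpat1 had 0.12 ± 0.179, Agpat3 -0.21 ± 0.217, Agpat4 0.18 ± 0.105 and Agpat5 -0.15 ± 0.0844, and none of these passed (adjusted p = 0.472 to 0.791).

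Lpin1, the phosphatase that turns phosphatidate into diacylglycerol, had 9.60, 11.07, 9.53 and 10.09 in WT and 9.72, 9.24, 8.78 and 9.76 in Ad/NICD. WT replicate 2 stood highest, and its array gave the lowest ratio, -1.83, beside 0.13, -0.75 and -0.33 on the others. The mean was -0.70 ± 0.32 (adjusted p = 0.389), and without replicate 2 it was -0.32. A dim Lpin1 probe had -0.12, and the mean of the 2 probes was -0.41. Its relatives Lpin2 and Lpin3 had 0.02 ± 0.0686 and -0.02 ± 0.141 (adjusted p = 0.922 and 0.97).

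**Figure D2:**
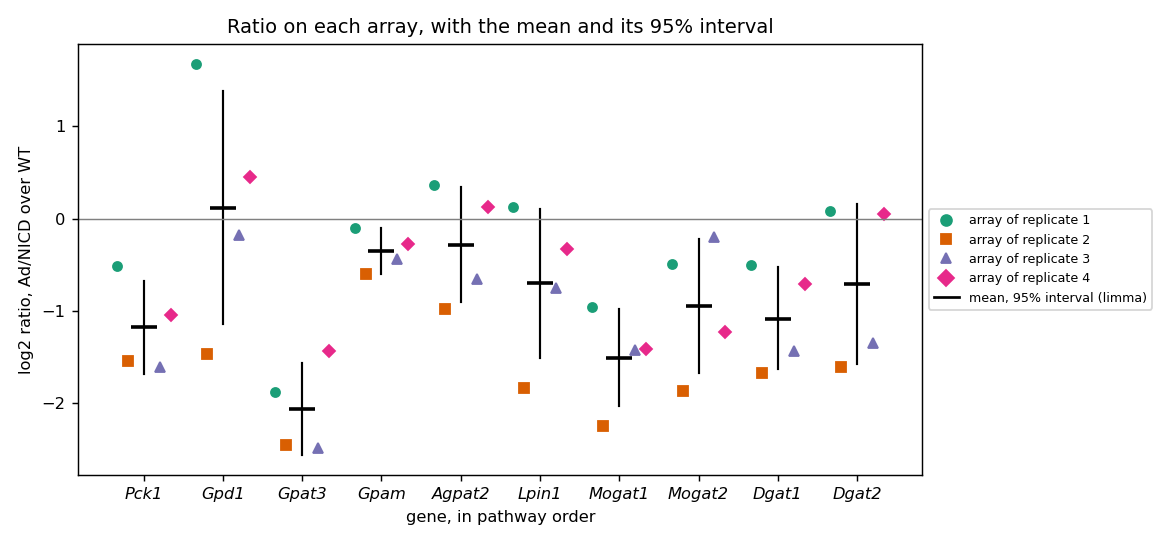
Log2 ratio of Ad/NICD over WT (y axis) for the 10 genes (x axis) on each of the 4 arrays (coloured points), with the mean as a bar and limma's 95% interval as a line. The intervals of Gpat3, Gpam, Mogat1, Mogat2, Dgat1 and Pck1 lie below 0, those of Gpd1, Agpat2, Lpin1 and Dgat2 include it, and the array of replicate 2 gave the lowest ratio for 8 of 10 genes.

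On the route from monoacylglycerol, Mogat1 had 8.44, 9.0, 8.42 and 9.33 in WT and 7.48, 6.76, 7.0 and 7.93 in Ad/NICD. Every Ad/NICD sample was below every WT sample, and the ratios were -0.96, -2.24, -1.42 and -1.41. The mean of -1.51 ± 0.208 had a 95% interval of -2.03 to -0.98 and an adjusted p of 0.117, which was 0.0329 in the random-block fit and 0.0597 without it. The Mogat1 ratio was -2.11 with the scanner's processed signals. Mogat2, which catalyses the same reaction and is best known from the intestine, had 7.48, 8.44, 7.42 and 8.60 in WT and 6.98, 6.58, 7.22 and 7.37 in Ad/NICD. Its groups do not overlap either, by 0.05 at the nearest samples. Its ratios of -0.49, -1.86, -0.20 and -1.23 had a mean of -0.94 ± 0.287 (adjusted p = 0.239), and it was -1.52 with the scanner's processed signals.

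Mogat1 minus Mogat2 was -0.47, -0.38, -1.22 and -0.18 on the arrays, with a mean of -0.56 ± 0.457 (SD, n = 4; exact sign-flip permutation p = 0.125, adjusted p = 0.125). Mogat1 was lower than Mogat2 in ratio on 4 of 4 arrays, by an amount that varied 1.22 to 0.18 in size, and the mean was -0.34 without replicate 3. Both probes read low in Ad/NICD, at mean levels of 7.29 and 7.04, where the offset draws ratios toward 0. With an offset of 10 the mean difference was -0.61. The unpaired exact permutation test, which sets the shared arrays aside, gave an adjusted p of 0.0429. The sign-flip permutation test gave an adjusted p of 0.188 with no background correction. It was 0.375 with the processed signals and with the authors' value table.

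The last acyl chain is added by Dgat1, an enzyme that tends to use fatty acids from outside or from re-esterification, or by Dgat2, which is tied to newly made fatty acids and lipid droplets. Dgat1 had 11.42, 11.96, 11.42 and 11.46 in WT and 10.91, 10.29, 9.99 and 10.75 in Ad/NICD, without overlap. Its ratios of -0.50, -1.67, -1.43 and -0.71 gave a mean of -1.08 ± 0.219 and a 95% interval of -1.63 to -0.52. The adjusted p was 0.149 in the ratio fit, 0.0424 in the random-block fit and 0.0645 without it.

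Dgat2 had 15.26, 16.49, 15.85 and 15.53 in WT and 15.34, 14.89, 14.50 and 15.58 in Ad/NICD, and the groups overlap. On the arrays of replicates 2 and 3 its ratios were -1.60 and -1.35, and on those of replicates 1 and 4 they were 0.08 and 0.05. The mean was -0.71 ± 0.341, with a 95% interval of -1.57 to 0.16 and an adjusted p of 0.407, and it was -0.41 without replicate 2.

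Dgat1 minus Dgat2 was -0.58, -0.08, -0.08 and -0.75 (mean -0.37 ± 0.348, SD, n = 4; exact sign-flip permutation p = 0.125, adjusted p = 0.125, and 0.143 unpaired). The enzymes differed on the arrays of replicates 1 and 4, where the Dgat2 ratio was near 0, and hardly on those of replicates 2 and 3, where both were lower. The mean difference was close to its SD. With 4 arrays the sign-flip test cannot give a p below 0.125, so an unequal change of Dgat1 and Dgat2 was not shown. With median centring in place of loess the mean difference was -0.68 (adjusted exact permutation p = 0.125). Set together as a description, Gpat3, Mogat1 and Dgat1 averaged -1.12, -2.12, -1.78 and -1.18 on the arrays, and Gpam and Dgat2 averaged -0.01, -1.10, -0.90 and -0.11. The gap was -1.10, -1.02, -0.88 and -1.07, a mean of -1.02 ± 0.0989 (SD, n = 4), while each average moved by about 1 log2 unit from array to array. These sets were named with earlier results of these data known, and Mogat2, at -0.94, is in neither. The gap and its small SD are therefore no test of an unequal change.

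**Figure D3:**
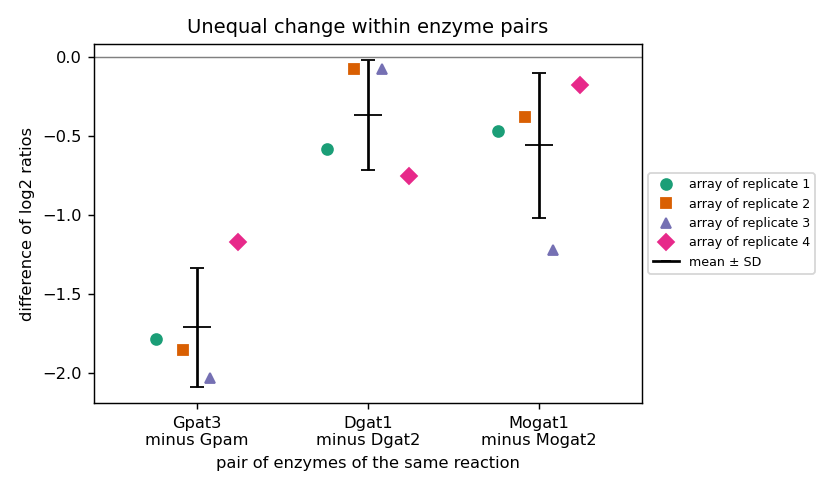
Difference of log2 ratios (y axis) for the 3 pairs of enzymes that catalyse the same reaction (x axis), on each of the 4 arrays (points), with the mean and SD over arrays (bars). All 12 points lie below 0. Gpat3 minus Gpam runs from -2.03 to -1.17, and the other pairs come within 0.08 and 0.18 of 0.

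In glyceroneogenesis, Pck1 had 14.91, 15.89, 15.22 and 15.68 in WT and 14.40, 14.35, 13.62 and 14.65 in Ad/NICD. Every Ad/NICD sample was below every WT sample. The ratios of -0.51, -1.54, -1.60 and -1.04 had a mean of -1.17 ± 0.199, a 95% interval of -1.68 to -0.67 and an adjusted p of 0.13, which was 0.0534 in the random-block fit. Pcx, the step before it, had 14.52, 15.26, 14.82 and 14.81 in WT and 13.66, 12.96, 12.95 and 13.72 in Ad/NICD. Its groups were also apart, at -1.53 ± 0.26 (adjusted p = 0.13 in the ratio fit, 0.0189 in the random-block fit and 0.0301 in separate channels without it).

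Gpd1, which makes glycerol 3-phosphate itself, did not share the lower mean ratio of Pck1. It had 14.51, 16.48, 15.30 and 15.12 in WT and 16.19, 15.01, 15.12 and 15.57 in Ad/NICD. The ratios were 1.68, -1.46, -0.18 and 0.45, so 2 arrays were higher and 2 lower, and the mean was 0.12 ± 0.498 (95% interval -1.14 to 1.38, adjusted p = 0.935). The sign turned to -0.40 without replicate 1, -0.13 with the processed signals, -0.15 with the authors' value table and -0.06 with median centring. Its relative Gpd1l had -0.11 ± 0.0738 (adjusted p = 0.539) from a dim probe, with mean levels of 7.37 in WT and 7.26 in Ad/NICD.

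Brown fat markers moved with Gpd1 from array to array, and this was not particular to Gpd1. Agpat2, Lpin1, Dgat1, Dgat2, Gpam and Mogat1 ordered the arrays the same way, and Gpat3, Mogat2 and Pck1 did not. Some of these orders rest on small gaps. Pck1 differed only in the arrays of replicates 2 and 3, at -1.54 and -1.60. Mogat1 had -1.42 and -1.41 on those of replicates 3 and 4. On the array of replicate 1 the ratio was highest for 8 of 10 members. On that of replicate 2 it was lowest for 8 of 10. The median of 5 of 5 measured markers (Ucp1, Cidea, Cox8b, Elovl3 and Cox7a1) was 1.46, -1.80, -0.12 and 0.05 on the arrays. Ucp1, which uncouples respiration in thermogenic fat, had a level of 12.24 in WT replicate 1 and 14.66 in Ad/NICD replicate 1, and 15.16 and 12.49 in replicate 2. The log2 of the summed signals of the 5 markers ran from 15.23 to 17.38 in WT and from 15.73 to 16.87 in Ad/NICD. Their part in the ratios of Gpd1 and of the other members was not tested.

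The adipocyte markers had array medians of -0.41, -1.43, -1.30 and -0.01, beside -0.30, -1.64, -1.05 and -0.52 for the 10 members. Less the adipocyte median of its own array, Gpat3 was at -1.47, -1.02, -1.17 and -1.42, a mean of -1.27 ± 0.213 (SD, n = 4). Mogat1 averaged -0.72 ± 0.532, Pck1 -0.38 ± 0.435 and Dgat1 -0.29 ± 0.279 by this measure, each below 0 on 4 of 4 arrays. Gpam averaged 0.43 ± 0.525, Agpat2 0.51 ± 0.276, Gpd1 0.91 ± 0.92, Lpin1 0.09 ± 0.523, Dgat2 0.08 ± 0.286 and Mogat2 -0.16 ± 0.963. The distance of Gpat3 below the marker median varied least over the arrays. The markers themselves had mean ratios from -1.83 to 0.19. Retn lay below Gpat3 on the arrays of replicates 2 and 3 (-2.61 and -2.72) and above it on those of replicates 1 and 4 (-1.40 and -0.60). The mean ratios of Retn and Cfd, -1.83 and -1.43, were below those of Dgat1 and Pck1, and those of the other markers were above.

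**Figure D4:**
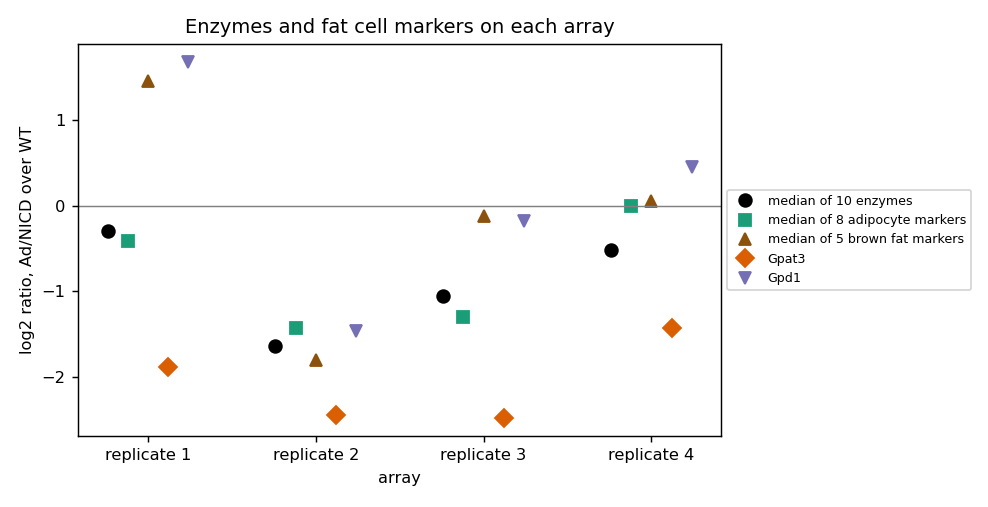
Log2 ratio of Ad/NICD over WT (y axis) on each array (x axis) for the median of the 10 enzymes, the median of 8 adipocyte markers, the median of 5 brown fat markers, Gpat3 and Gpd1. Gpat3 lies between -2.48 and -1.43 and is the lowest point on every array, and Gpd1 and the brown fat markers are above 1 on the array of replicate 1 and below -1 on that of replicate 2.

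Markers of other cell types were measured on the same arrays. Macrophage markers had a median of 0.03 (2 of 5 below 0). The log2 of their summed signals was 14.03 to 14.80 in WT and 14.04 to 14.85 in Ad/NICD, and the same measure is given for the other cell types. Skeletal muscle markers had a median of -1.90 (7 of 7 below 0; 11.47 to 17.12 and 10.55 to 12.93), mammary epithelium -0.51 (5 of 5; 8.82 to 14.52 and 8.89 to 14.70) and endothelium -0.25 (5 of 5; 13.46 to 13.88 and 12.66 to 13.41). Of 5 liver markers 3 were measured, with -1.08 (3 of 3; 12.44 to 12.97 and 11.10 to 12.29), and Apoa1 and Ttr did not pass the filter. The replicate 4 pair, which differed in Xist, stood apart here too. All muscle markers but Mb were highest in WT replicate 4, as Myh4 at 15.58 against 9.65 to 11.96 in the other WT samples. Of the mammary markers, Krt18 had 6.33 and 6.71 in WT and Ad/NICD of replicate 4 and 12.88 to 14.26 in the other samples. The part of all these cell types in the enzyme ratios was not tested.

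Among the members, 6 of 10 were lower on 4 of 4 arrays, against 13.3% of all gene names, and 5 of 10 had every Ad/NICD sample below every WT sample, against 5.59% (and 4.23% the other way). At 2-fold or more lower on average were 4 of 10, against 0.645%. The 5 with separate groups were Gpat3, Mogat1, Mogat2, Dgat1 and Pck1. The median ratio of the 10 was -0.82, and that of all names was -0.01. It was -0.52 without replicate 2 and -1.03 without replicate 1. Of the 8 adipocyte markers, 3 were lower on 4 of 4 arrays and 3 had every Ad/NICD sample below every WT sample. In the ratio fit 5 of them were lower at an unadjusted p under 0.05, and their median ratio was -0.78. Lower ratios were thus not particular to the enzymes.

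Of 21 other enzymes of glycerolipid synthesis, 20 were measured, with a median of -0.12, 14 below 0 and 0 past the threshold in the ratio fit or the random-block fit, and 2 lower at an unadjusted p under 0.05, a share near the 8.99% of all names. These 2 were acyl-CoA synthetases, which activate fatty acids: Acsl1, the main one of fat, at -1.03 ± 0.27 (adjusted p = 0.198) and Acsl4 at -0.32 ± 0.0729 (adjusted p = 0.169). Agpat5 came next in p. Acsl1 had 14.48 to 15.41 in WT and 13.31 to 14.20 in Ad/NICD. Of all 25100 names, 12958 had a mean ratio below 0, the background for the counts below 0 of each list.

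Of 11 other enzymes of glyceroneogenesis, all measured, the median was 0.02 and 5 were below 0. At an unadjusted p under 0.05, 1 was lower, a share near the 8.99% of all names. It was Pcx, followed in p by Tpi1 at -0.33 ± 0.137 (adjusted p = 0.347) and Got1 at 0.14 ± 0.0639 (adjusted p = 0.381).

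Diacylglycerol and phosphatidate are shared with phospholipid synthesis. Of 12 enzymes of that branch 11 were measured, with a median of -0.18 and 8 below 0. In the ratio fit 0 passed the threshold, and 5 were lower at an unadjusted p under 0.05, against 8.99% of all names. Chpt1, which joins phosphocholine to diacylglycerol, had -1.25 ± 0.287 (adjusted p = 0.168, and 0.0507 in the random-block fit), with 13.04 to 13.96 in WT and 11.66 to 12.55 in Ad/NICD. Cept1, which does the same with choline or ethanolamine heads, had -0.27 ± 0.0573 (adjusted p = 0.156) and an adjusted p of 0.0313 in the random-block fit and 0.0545 in separate channels without the block. Cds2, which takes phosphatidate toward phosphatidylinositol, had -0.29 ± 0.056 (adjusted p = 0.139).

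Of 12 transcriptional regulators of these enzymes, all measured, the median was -0.27 and 10 were below 0. In the ratio fit 0 passed, and 5 were lower at an unadjusted p under 0.05, against 8.99% of all names. Rxra, the partner of PPAR receptors, had -0.47 ± 0.0729 (adjusted p = 0.127, 0.025 in the random-block fit and 0.0464 without it), with 7.37 to 7.59 in WT and 6.85 to 7.14 in Ad/NICD. Cebpa, a driver of fat cell maturation, had -0.93 ± 0.173 (adjusted p = 0.136). Insig1, which holds back SREBP processing, had -0.71 ± 0.231 (adjusted p = 0.259).

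**Figure D5:**
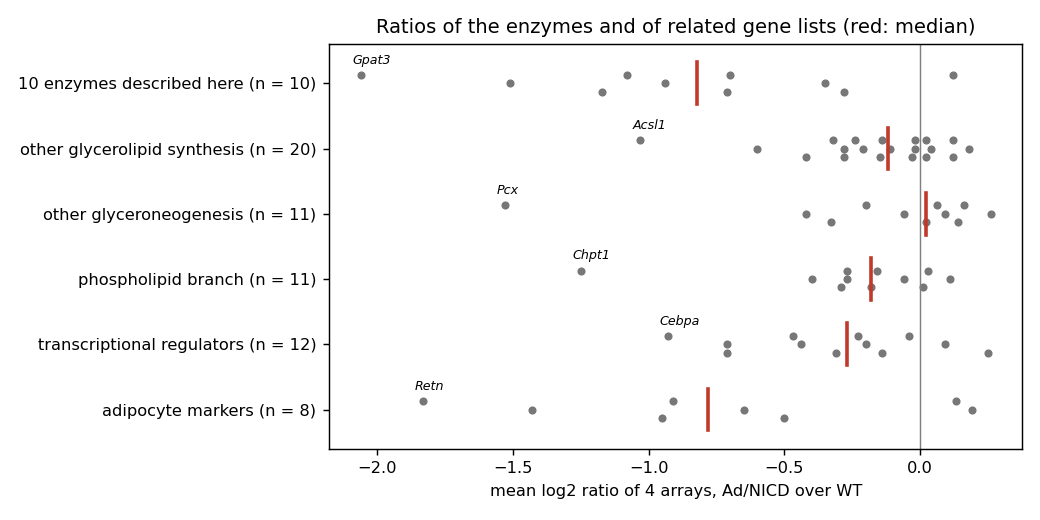
Mean log2 ratio over 4 arrays (x axis) of every measured gene (points) of the 10 enzymes and of 5 related lists (y axis), with list medians in red and the lowest gene of each list named. Medians are -0.82 for the 10 enzymes, -0.78 for adipocyte markers and between -0.27 and 0.02 for the other lists.

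The genes most like a member were ranked by Pearson's r of log2 level over the 8 samples, among 15824 genes with a RefSeq symbol. As the genotypes differ for Gpat3, Mogat1 and Dgat1, any gene that differs between genotypes scores high with them, and r is given as a description. For Gpat3 these were Mgst3, Rida and Klhl2, each at 0.99, with ratios of -1.11, -0.57 and -0.77. For Mogat1 they were Chdh at 0.99 and Pfkfb1 and Tmem120a at 0.98, and for Dgat1 they were Ralgapa2, Nudt7 and Alad at 0.99. For Gpam they were Cyp2b10, Aldh3b3 and Eci3 at 0.98, and for Dgat2 they were Mrpl30 at 0.99 and Ptgr2 and Bcat2 at 0.98. None of these 15 genes passed the ratio fit.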

How the data were processed

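Scans of 4 arrays with 2 colours were read with Agilent Feature Extraction 11.5, per the submitters' processing notes. The deposited scanner tables give an intensity for each spot and channel (foreground, background, background-subtracted and processed), and a log10 ratio that was not used. WT and Ad/NICD tables of the same number were identical on all 4 arrays. The authors' deposited value table is on a log2 scale and equals the processed signal of 1 channel less a constant, green for WT and red for Ad/NICD. The sources used here give no genome build.

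Median foreground was corrected with normexp (offset 50), as the tables hold no mean foreground, and loess was run within each array (limma 3.58.1, R 4.3.3), with Aquantile scaling for levels. Of 55681 probes, 28026 were named through RefSeq accessions. Probes well above background in 1 channel on 3 arrays were kept, and the brightest stood for its gene. Replicate 1 lacked these flags, so its spots were called by a background-subtracted signal over 6.2 times the negative controls' MAD, which matched 98.1% to 99.8% of the flags on the other arrays. Ratios were tested against 0 with lmFit and eBayes, adjusted by Benjamini-Hochberg over 25100 names at 0.05, and the fit was checked on simulated data. Limma's p-values weigh the mean ratio against the spread between these 4 arrays, with each gene's variance drawn toward a value common to all names.

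Same-numbered samples share an array, and their deviations correlated at 0.18, 0.17, 0.56 and 0.53, so the ratio fit keeps the pairs. The value for replicate 1 was below its highest with a differently numbered sample, 0.28. Members and lists, and the rule for named genes (the 10 members, the 3 lowest p-values and same-step enzymes of each list, and the 3 most like genes), were chosen with earlier results of these data known. Alternatives were other pairings, backgrounds, scalings, filters, probe rules and leaving out each replicate.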

Additional observations from a re-analysis of the deposited data

Results flagged for a closer look

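Dgat1 had a log2 level of 11.96 in WT replicate 2, far from the other 3 WT samples, which lay between 11.42 and 11.46. The gap was 0.914 of the range of the 4 samples. Of 33 sets of 4 values tested in this way for the members and the enzyme pairs, 1 stood out, and chance gives about 1 in 20.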

How the results depend on the processing

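The count of genes past the threshold was 12, and it was 259 in separate channels with no replicate block, 503 with the array as a random block, 4 with the processed signals, 3 with the authors' value table, and 0 with median centring, with no filter on dim probes and with eBayes trend and robust settings. Leaving out 1 replicate gave 0 to 43. Members past the threshold were 0, with 1 without the replicate block, 3 with the array as a random block and 0 to 1 leaving out a replicate. Unpaired, the adjusted p fell to 0.0429 for Gpat3 minus Gpam (-1.71) and Mogat1 minus Mogat2 (-0.56), without a change in value. In the sign-flip permutation test it rose to 0.375 for each pair with the processed signals and with the authors' value table. With the array as a random block the enzyme pairs were not run, as no exact test was available for it. Gpat3, Mogat1 and Dgat1 minus Gpam and Dgat2 was -1.29 with median centring, under which all genes had a median of -0.32 (and -0.01 to 0.01 under the other settings). Gpd1 changed sign to -0.13, -0.15, -0.06 and, without replicate 1, -0.40; leaving out 1 replicate it ran from -0.40 to 0.65. The ratios of the other 9 members stayed below 0 under all 15 alternatives. An offset of 10, chosen after seeing the data, moved no call for a member. The causes of these changes were not tested. Gpam and Mogat2 had dim probes, and their ratios moved from -0.35 to -0.77 and from -0.94 to -1.53 with the authors' value table. Mogat1 moved from -1.51 to -2.12 with it, and Gpat3 from -2.06 to -2.22, so the distance between these 2 depends on the processing.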
